A study of Mus musculus with 20 samples.

Results

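The genes described here encode the proteins of the cytosolic ribosome. They were chosen by name alone, as the rows whose symbol begins with Rpl or Rps and a number, together with Rplp0, Rplp1, Rplp2 and Rpsa, leaving out the Rps6k kinases and the pseudogene rows. This gave 86 of the 25638 genes in the table. Of these, 31 encode small subunit proteins, 43 encode large subunit proteins outside the stalk and 3 encode the stalk, which makes 77 core members. Another 8 are paralogs of core genes, and 1, Rps19bp1, encodes an active regulator of the deacetylase SIRT1 and no ribosomal subunit. A total of 84 members passed the filter on low counts. The remaining 2, the germ cell paralogs Rpl10l and Rpl39l, had 0 counts in all 20 libraries.

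The ribosome translates mRNA with a small subunit that decodes and a large subunit that joins amino acids, and each core protein is made for assembly into particles with ribosomal RNA. In mammals the mRNAs of these proteins start with a C inside a run of pyrimidines, and the mTORC1 and LARP1 system controls their translation and stability through that start. Several free ribosomal proteins, Rpl5 and Rpl11 among them, bind the ubiquitin ligase Mdm2 when assembly is disturbed.

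Polyadenylated RNA was sequenced from whole kidneys of 20 male C57BL/6J mice, 6 to 8 weeks old and 18 to 22 g, in 4 groups of 5. In the 30 mg/kg and 15 mg/kg groups, mice took 7-hydroxycoumarin-β-D-glucuronide (7-HCG), a coumarin joined to glucuronic acid, orally at that dose each day for 5 days and were injected intraperitoneally with 10 mg/kg cisplatin on day 3. Mice of the cisplatin group took PBS in place of 7-HCG and were given the same injection, and control mice took PBS and were injected with saline. Kidneys were collected 72 h after the injection. Cisplatin is a platinum drug that injures the proximal tubule. No group took 7-HCG without cisplatin, so a 7-HCG group set against control differs from it by both agents. The comparisons ask what cisplatin changed and whether 7-HCG changed it further at either dose.

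The libraries held 10714532 to 49602115 counts, and 164265 to 1838917 of these fell on the members. A total of 3 libraries stood apart. The main counts of called genes and of cell type markers, and many of the named calls that were lost, are also given without them. In cisplatin replicates 9 and 10, 77.7% and 70.6% of all counts fell on the 13 mitochondrially encoded mRNAs, against 16.6% to 27.3% in the other cisplatin libraries, 3.04% to 8.01% in the 10 libraries of the 7-HCG groups and 24.6% to 45.5% in control libraries. In 15 mg/kg replicate 2, members took 6.92% of nuclear-encoded counts, against 2.89% to 4.71% in the other 19 libraries. All 12 proximal tubule markers passed the filter on low counts, and their summed level was 23399.5 to 46026 CPM in the 30 mg/kg kidneys, 34919 to 60030.0 CPM in the 15 mg/kg kidneys, 8271 to 24822 CPM in cisplatin and 17694 to 56280.1 CPM in control kidneys. CPM here are counts scaled to library size after TMM scaling.

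The starts of 5 members are shown as examples of mRNAs that begin in a run of pyrimidines. They include the start of Rpl38, a large subunit gene that passed in none of the comparisons with 7-HCG. Each runs from 40 bases before the RefSeq start to 25 bases from it on, in GRCm38.p6, at chr7:141447611-141447675, plus strand for Rplp2, chr4:86857343-86857407, minus strand for Rps6, chr14:18270962-18271026, minus strand for Rpl15, chr7:118116123-118116187, minus strand for Rps15a and chr11:114668540-114668604, plus strand for Rpl38. Capitals mark the run of a C followed by at least 4 pyrimidines (C or T), on the sense strand, that holds the start or begins at it.
Rplp2: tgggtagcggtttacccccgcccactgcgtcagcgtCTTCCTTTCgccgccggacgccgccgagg
Rps6: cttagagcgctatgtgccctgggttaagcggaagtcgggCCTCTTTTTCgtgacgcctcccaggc
Rpl15: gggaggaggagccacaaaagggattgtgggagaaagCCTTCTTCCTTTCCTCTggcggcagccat
Rps15a: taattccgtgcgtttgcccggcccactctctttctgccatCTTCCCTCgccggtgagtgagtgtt
Rpl38: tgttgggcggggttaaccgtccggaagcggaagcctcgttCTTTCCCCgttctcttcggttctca
Such a tract began within 20 bases of the start in 50 of the 66 members with an entry in the RefSeq promoter table (75.8%) and in 48.8% of all 27025 genes there. The letters CTTTC, which can overlap that tract, were present in the same window in 28.8% of members and 5.38% of all genes. Over the 300 bases from 250 before to 50 after the start, on both strands, CCGGAAG was present in 37.9% of members and 9.12% of all genes, and TATAAA in 9.09% of members and 14.2% of all genes. Among members with an entry, the tract was present in 11 of the 17 that were higher in all 4 comparisons of 7-HCG with cisplatin or control, in 31 of the 38 that were higher in 1 to 3 of them, and in 6 of the 9 that passed in none. Any part of the tract in the members' values was not tested.

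Kidneys given 7-HCG with cisplatin held more ribosomal protein mRNA per unit of library than kidneys given cisplatin alone, more members passing at 15 than at 30 mg/kg. At 15 mg/kg, 64 of the 84 tested members were higher than in cisplatin kidneys and 0 were lower, where 37.5% of the 14858 tested genes passed, 18.9% higher and 18.6% lower. Their median log2 fold change was 0.88, against -0.05 over all tested genes. At 30 mg/kg, 23 members were higher and 0 were lower, where 27.9% of tested genes passed, 14.7% higher and 13.2% lower, and the median was 0.44, against 0.00 over all tested genes. All 23 were also among the 64. By part of the ribosome, 11 of 31 small subunit, 10 of 43 large subunit and 1 of 3 stalk genes passed at 30 mg/kg, and 28, 30 and 3 passed at 15 mg/kg. The groups did not overlap for 9 of the 84 members at 30 mg/kg and 13 of the 84 at 15 mg/kg, all higher than in cisplatin kidneys. Of all tested genes, 11.0% and 10.6% were higher in the same way, so at 30 mg/kg the share among members was no larger. All tests are edgeR quasi-likelihood tests with Benjamini-Hochberg adjustment over all tested genes at 0.05, and the direction of the median was the same under every scaling tried. In whole kidney, a shift in the share of a cell type and a shift in RNA per cell cannot be told apart.

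These counts rested in part on the libraries that stand apart. Without cisplatin replicates 9 and 10 and 15 mg/kg replicate 2, 25 members (29.8%) were higher at 15 mg/kg and 10 (11.9%) at 30 mg/kg. Of all tested genes, 12.3% were then higher and 11.1% lower at 15 mg/kg, 23.4% in either direction. At 30 mg/kg 8.33% were higher and 7.82% lower, 16.2% in either direction. The medians were then 0.43 and 0.26. Scaling to totals of nuclear-encoded counts moved the median of all genes to -0.52 at 15 mg/kg and -0.34 at 30 mg/kg, and 28 (33.3%) and 6 (7.14%) members then passed, all higher, where 43% and 29% of all tested genes passed in either direction. The member medians were then 0.36 and 0.10.

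**Figure D1:**
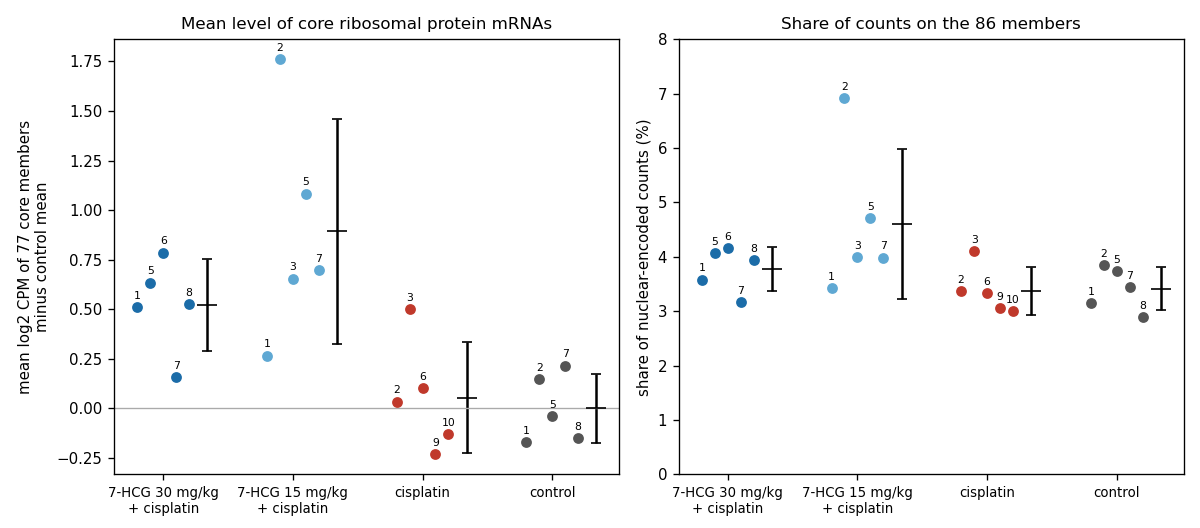
Left, the mean log2 CPM of the 77 core members in each kidney minus the mean of the control kidneys; right, the share of nuclear-encoded counts on the 86 members in percent. Points are kidneys with their replicate numbers, bars are the mean and SD of 5, and the highest point in both plots is 15 mg/kg replicate 2, at 1.76 and 6.92%.

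Each kidney can be read on its own in the plot of mean core levels. On the log2 scale, relative to the control mean, the 77 core members averaged 0.51, 0.63, 0.78, 0.16 and 0.53 in the 30 mg/kg kidneys and 0.27, 1.76, 0.65, 1.08 and 0.70 in the 15 mg/kg kidneys, against 0.03, 0.50, 0.10, -0.23 and -0.13 in the cisplatin kidneys and -0.17, 0.15, -0.04, 0.21 and -0.15 in the control kidneys. The groups given 7-HCG overlapped with cisplatin through cisplatin replicate 3, 30 mg/kg replicate 7 and 15 mg/kg replicate 1. In the 30 mg/kg kidneys, 24 to 70 of the 77 core genes lay above the highest control kidney, and in the 15 mg/kg kidneys 39 to 77 did. In the cisplatin kidneys the same count was 7 to 14 in 4 libraries and 72 in replicate 3. Members took 3.17% to 4.16% of nuclear-encoded counts in the 30 mg/kg kidneys and 3.42% to 6.92% in the 15 mg/kg kidneys, against 3.00% to 4.10% in cisplatin and 2.89% to 3.84% in control kidneys.

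Against control, the same direction was seen at both doses. At 15 mg/kg, 71 members were higher and 0 lower, where 45.2% of tested genes passed, 23% higher and 22.2% lower, with a median of 1.00 against -0.06 over all genes. At 30 mg/kg, 29 were higher and 0 lower, where 34.3% of tested genes passed, 18.6% higher and 15.6% lower, with a median of 0.52 against 0.01. All 29 were among the 71, and 23 members were higher in all 4 comparisons of a dose with cisplatin or control, which share libraries. Groups did not overlap with control for 27 members at 30 mg/kg and 41 at 15 mg/kg, all higher, where 15.9% and 16.2% of all tested genes were higher in that way. Without 15 mg/kg replicate 2, 52 members were higher at 15 mg/kg. Without all 3 libraries that stand apart, 57 members were higher at 15 mg/kg and 39 at 30 mg/kg. In that fit 23.1% and 21.2% of all tested genes were higher. With all libraries, and relative to control, all 8 fibroblast and mural markers and 7 of 8 endothelial markers were lower at each dose. In that fit 8 of 10 injured tubule markers were higher at each dose, and without the 3 libraries 6 were at 15 mg/kg. Scaled to totals of nuclear-encoded counts, 47 of the 84 members were above 0 at 30 mg/kg, 9 being called higher and 1 lower.

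Cisplatin alone gave few calls in this gene set. Relative to control, 2 of 84 members were higher and 0 lower, where 13.4% of tested genes passed, 8.41% higher and 5.01% lower, and the median was 0.07 against -0.01 over all genes. The median was below 0 when libraries were scaled to their totals, at -0.22, or to totals of nuclear-encoded counts, at -0.045 (the medians of all genes were then -0.35 and -0.12). A total of 3 members had an unadjusted p under 0.05. The 2 that passed were Rpl10a and the retrocopy Rps27rt, both described below, and neither passed without cisplatin replicate 10. For 2 other members, Rpl21 and Rps15, every cisplatin kidney was above every control kidney, where 5.88% of tested genes were; they are named after their values were seen.

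Between the 2 doses no member passed. In 30 mg/kg against 15 mg/kg kidneys, 0 of 84 members passed, as did 0% of all tested genes, and DESeq2 and limma voom also gave 0 members. The median was -0.49, with 83 of 84 members below 0 and 24 at an unadjusted p under 0.05. Without 15 mg/kg replicate 2 the median was -0.20 and 11 members were above 0. For no member were the 2 doses without overlap.

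**Figure D2:**
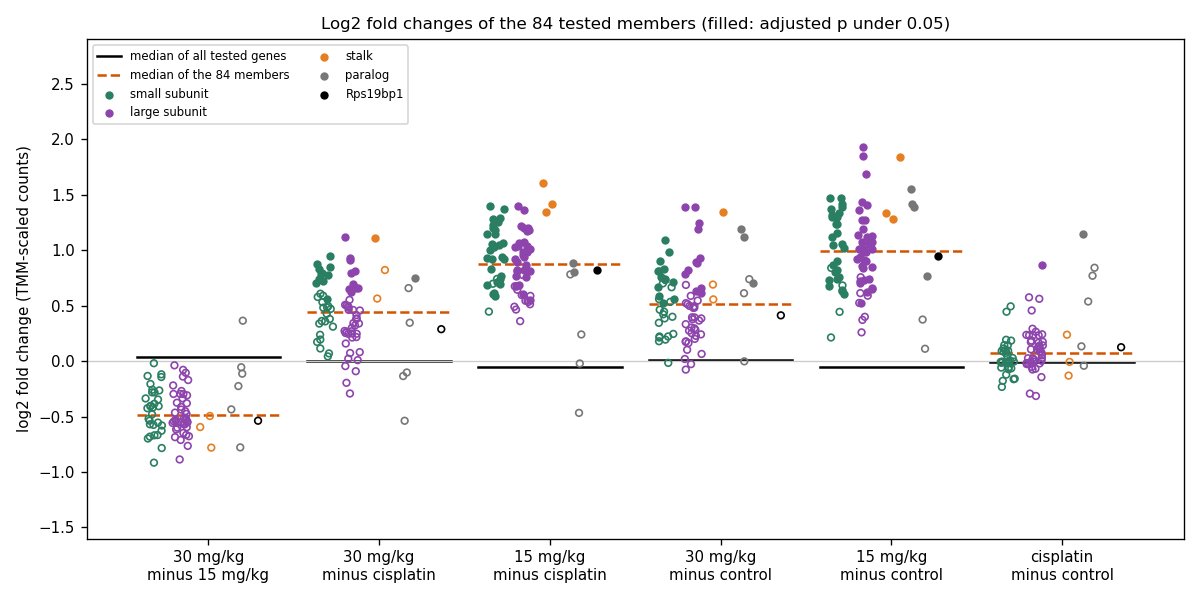
Log2 fold change of each of the 84 tested members in 6 comparisons, by part of the ribosome; filled points passed at an adjusted p under 0.05. Dashed lines are the members' medians, 0.44 at 30 mg/kg and 0.88 at 15 mg/kg against cisplatin, and solid lines are the medians of all 14858 tested genes.

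The stalk, which recruits the elongation factors to the large subunit, held the member with the largest rise at 15 mg/kg relative to cisplatin. Rplp0 (chr5:115559467-115563727, GRCm38), the base of the stalk, had 1844, 1639, 1680.1, 1168 and 1299 CPM in the 30 mg/kg kidneys and 1179.6, 3298, 1467, 3266 and 1545 CPM in the 15 mg/kg kidneys, against 656, 909, 646, 573 and 758 CPM in the cisplatin kidneys and 419, 721, 738, 636 and 491 CPM in the control kidneys. Every kidney given 7-HCG was above every kidney of the other groups. The log2 fold change against cisplatin was 1.11 ± 0.28 (edgeR adjusted p = 0.00716) at 30 mg/kg and 1.60 ± 0.28 (edgeR adjusted p = 0.000411) at 15 mg/kg, and against control 1.34 ± 0.28 (edgeR adjusted p = 0.00172) and 1.84 ± 0.29 (edgeR adjusted p = 0.000121). Its partners are the acidic proteins that dimerise on it. Rplp1 had 772, 806, 909, 542 and 672 CPM in the 30 mg/kg kidneys and 613, 2428, 819, 1696 and 800.4 CPM in the 15 mg/kg kidneys, against 599, 672, 509.9, 321 and 402 CPM in the cisplatin kidneys and 439, 590.4, 516, 579 and 393 CPM in the control kidneys. It was higher at 15 mg/kg than in cisplatin kidneys by 1.34 ± 0.32 (edgeR adjusted p = 0.00286), while the value at 30 mg/kg was 0.56 ± 0.31 (edgeR adjusted p = 0.179). It no longer passed at 15 mg/kg without the 3 libraries that stand apart, at 0.74 (edgeR adjusted p = 0.0723). Rplp2, whose start is printed above, averaged 307 ± 78.1 CPM at 30 mg/kg and 463 ± 284 CPM at 15 mg/kg, against 173 ± 54.4 CPM in cisplatin and 190.1 ± 40.6 CPM in control kidneys (SD, n = 5 each). It was higher at 15 mg/kg by 1.42 ± 0.31 (edgeR adjusted p = 0.00193), and at 30 mg/kg the value was 0.82 ± 0.31 (edgeR adjusted p = 0.0518). The value at 15 mg/kg without the 3 libraries was 0.74 (edgeR adjusted p = 0.0468). At 15 mg/kg replicate 2 was the highest kidney for all 3 stalk genes.

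In the small subunit, Rps3, at the entry of the mRNA channel, separated the groups in full. It had 581, 495, 514, 359.9 and 437 CPM in the 30 mg/kg kidneys and 381, 983, 489, 835 and 478 CPM in the 15 mg/kg kidneys, against 240.4, 344, 254, 238 and 250.0 CPM in the cisplatin kidneys and 237, 311, 275, 299 and 222 CPM in the control kidneys. Each kidney given 7-HCG was above each cisplatin and control kidney. Against cisplatin it was higher by 0.85 ± 0.24 (edgeR adjusted p = 0.0119) at 30 mg/kg and 1.25 ± 0.24 (edgeR adjusted p = 0.000647) at 15 mg/kg. Its transcript shares no run of 75 bases with another annotated gene. Rps4x (chrX:102184941-102189394), the X-linked S4 protein, had 473, 515, 530.3, 369.7 and 436 CPM in the 30 mg/kg kidneys and 384, 880.0, 477, 593 and 491 CPM in the 15 mg/kg kidneys, against 215, 309, 215, 221 and 247 CPM in the cisplatin kidneys and 164, 256, 239, 249.5 and 184 CPM in the control kidneys. The 10 values with 7-HCG were again above the 10 without. It was higher than in cisplatin kidneys by 0.94 ± 0.22 (edgeR adjusted p = 0.00389) at 30 mg/kg and 1.23 ± 0.22 (edgeR adjusted p = 0.000405) at 15 mg/kg. Rps6, the substrate of the S6 kinases, moved less. Its values were 579.9, 573, 666, 456 and 559 CPM in the 30 mg/kg kidneys and 462, 802, 562, 683 and 569.7 CPM in the 15 mg/kg kidneys, against 333, 501, 401, 368 and 315 CPM in the cisplatin kidneys and 307, 434, 383, 441 and 361 CPM in the control kidneys. Cisplatin replicate 3 lay inside the range of both 7-HCG groups. Rps6 was higher than in cisplatin kidneys by 0.56 ± 0.19 (edgeR adjusted p = 0.0319) at 30 mg/kg and 0.68 ± 0.19 (edgeR adjusted p = 0.00858) at 15 mg/kg, but without the 3 libraries that stand apart the edgeR adjusted p was 0.12 at 30 mg/kg and 0.0926 at 15 mg/kg.

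Other small subunit genes followed with different strength. Rps14, at the head of the small subunit platform, averaged 589 ± 143 CPM at 30 mg/kg and 874 ± 482 CPM at 15 mg/kg, against 331 ± 69.9 CPM in cisplatin and 315 ± 60.1 CPM in control kidneys (SD, n = 5 each) and was higher than in cisplatin kidneys by 0.83 ± 0.30 (edgeR adjusted p = 0.0415) and 1.40 ± 0.30 (edgeR adjusted p = 0.00154) at 30 and 15 mg/kg. Its call at 30 mg/kg was lost without the 3 libraries that stand apart, at 0.66 (edgeR adjusted p = 0.155). Rps27a, made as a fusion with ubiquitin, averaged 311 ± 85.8 CPM at 30 mg/kg and 342 ± 106 CPM at 15 mg/kg, against 179.7 ± 55.3 CPM in cisplatin and 196 ± 49.3 CPM in control kidneys. It passed against cisplatin at both doses, at 0.79 ± 0.25 (edgeR adjusted p = 0.0241) and 0.93 ± 0.25 (edgeR adjusted p = 0.00755), and without the 3 libraries at neither, with 0.79 (edgeR adjusted p = 0.0573) and 0.76 (edgeR adjusted p = 0.0614). Rpsa, also known as a laminin receptor, averaged 1095 ± 219 CPM at 30 mg/kg and 1738 ± 959 CPM at 15 mg/kg, against 784 ± 174 CPM in cisplatin and 690.1 ± 88.7 CPM in control kidneys, and passed at 15 mg/kg with 1.15 ± 0.28 (edgeR adjusted p = 0.00407) but not at 30 mg/kg, at 0.48 ± 0.28 (edgeR adjusted p = 0.204). Rps19, mutated in human Diamond-Blackfan anaemia, had 1273 CPM in 15 mg/kg replicate 2 and 257 to 553 CPM in the other 15 mg/kg kidneys. It was at 276 to 453 CPM at 30 mg/kg, against 205 to 419 CPM in cisplatin and 173 to 270.5 CPM in control kidneys. The test gave 0.92 ± 0.32 (edgeR adjusted p = 0.0286) at 15 mg/kg and 0.24 ± 0.32 (edgeR adjusted p = 0.602) at 30 mg/kg against cisplatin. At 15 mg/kg the call was lost without the 3 libraries, at 0.44 (edgeR adjusted p = 0.202). Small subunit genes that passed in none of the 4 comparisons with 7-HCG were Rps12, Rps28 and Rps29.

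In the large subunit, Rpl5, which carries a ribosomal RNA into the particle with Rpl11, had the largest rise at 30 mg/kg relative to cisplatin. Rpl5 (chr5:107900502-107909005) had 502, 600.2, 669, 427 and 523 CPM in the 30 mg/kg kidneys and 454, 803, 526, 518 and 572 CPM in the 15 mg/kg kidneys, against 198, 313, 218, 258 and 266 CPM in the cisplatin kidneys and 173, 292, 266, 271 and 189 CPM in the control kidneys. All 10 kidneys given 7-HCG were above all 10 others, and the means of the doses were close. It was higher than in cisplatin kidneys by 1.12 ± 0.21 (edgeR adjusted p = 0.00118) at 30 mg/kg and 1.20 ± 0.21 (edgeR adjusted p = 0.000369) at 15 mg/kg, and 30 mg/kg minus 15 mg/kg was -0.08 ± 0.21. Of the 75-base windows in its transcript, 92.5% occur in another annotated gene, so pseudogenes may share its reads. Rpl11, its partner, averaged 434 ± 67.7 CPM at 30 mg/kg and 656 ± 346 CPM at 15 mg/kg, against 374 ± 77.3 CPM in cisplatin and 352 ± 31.8 CPM in control kidneys (SD, n = 5 each). Rpl11 passed at 15 mg/kg, with 0.81 ± 0.25 (edgeR adjusted p = 0.0173) against cisplatin, and its value at 30 mg/kg was 0.21 ± 0.25 (edgeR adjusted p = 0.555). The mean of Rpl11 at 15 mg/kg includes replicate 2, at 1251 CPM, against 364 to 632 CPM in the other kidneys of that dose, and without the 3 libraries that stand apart Rpl11 did not pass, at 0.29 (edgeR adjusted p = 0.312).

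Rpl41, a very short basic peptide of the large subunit, had the largest rise of all members at 15 mg/kg relative to control. It had 519.6, 677, 696, 451 and 518 CPM in the 30 mg/kg kidneys and 448, 1558, 640.1, 951 and 574 CPM in the 15 mg/kg kidneys, against 302, 356, 249, 268 and 452 CPM in the cisplatin kidneys and 196, 251.7, 245, 251 and 149 CPM in the control kidneys. The 30 mg/kg and 15 mg/kg kidneys did not overlap with control kidneys, and cisplatin replicate 10 lay just above the lowest kidney of each dose. Against control it was higher by 1.39 ± 0.29 (edgeR adjusted p = 0.00152) at 30 mg/kg and 1.93 ± 0.29 (edgeR adjusted p = 9.01e-05) at 15 mg/kg. Rpl9 came next, with 323, 334, 324, 214 and 259 CPM in the 30 mg/kg kidneys and 205, 676, 319.8, 512 and 295 CPM in the 15 mg/kg kidneys, against 124, 165, 115, 141 and 219 CPM in the cisplatin kidneys and 96.1, 134, 130.3, 117 and 79.0 CPM in the control kidneys. Its lowest 15 mg/kg kidney and its lowest 30 mg/kg kidney lay just below cisplatin replicate 10 and above all other cisplatin kidneys. Relative to cisplatin it was higher by 0.93 ± 0.27 (edgeR adjusted p = 0.0157) and 1.40 ± 0.28 (edgeR adjusted p = 0.000883) at 30 and 15 mg/kg, and 91.3% of its 75-base windows occur in another gene. Rpl3, at the peptidyl transferase centre, averaged 461 ± 72.6 CPM at 30 mg/kg and 571 ± 127 CPM at 15 mg/kg, against 245 ± 54.4 CPM in cisplatin and 250.0 ± 63.8 CPM in control kidneys. Its 10 kidneys with 7-HCG were above all others, and the rise over cisplatin was 0.91 ± 0.22 (edgeR adjusted p = 0.00535) and 1.22 ± 0.22 (edgeR adjusted p = 0.000469). Rpl10, which is added late to the large subunit, averaged 707 ± 83.9 CPM at 30 mg/kg and 921 ± 311 CPM at 15 mg/kg, against 449 ± 83.3 CPM in cisplatin and 381 ± 59.6 CPM in control kidneys and also did not overlap with cisplatin at either dose.

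Rpl10a, a protein of the L1 stalk, is a member that passed in cisplatin against control. It had 488, 483, 491, 320.1 and 391 CPM in the 30 mg/kg kidneys and 356, 925, 487, 699 and 475 CPM in the 15 mg/kg kidneys, against 251.8, 265, 208, 279.8 and 668 CPM in the cisplatin kidneys and 169, 196, 171, 211 and 168 CPM in the control kidneys. Cisplatin replicate 10 stood above the other cisplatin kidneys, and every control kidney but replicate 7 was below every cisplatin kidney. The difference from control was 0.87 ± 0.29 (edgeR adjusted p = 0.0487), and without cisplatin replicate 10 it was 0.45 (edgeR adjusted p = 0.255). Against control both doses were higher, by 1.25 ± 0.29 (edgeR adjusted p = 0.00348) at 30 mg/kg and 1.69 ± 0.29 (edgeR adjusted p = 0.000259) at 15 mg/kg. Against cisplatin, Rpl10a passed at 15 mg/kg but not at 30 mg/kg. That call was kept in 24 of 32 alternative fits other than the replicate block. Rpl13a, known for translational silencing of inflammatory mRNAs, was listed low for a core gene, at 11.7 ± 1.24 CPM at 30 mg/kg and 14.7 ± 4.16 CPM at 15 mg/kg, against 9.96 ± 2.81 CPM in cisplatin and 12.3 ± 1.37 CPM in control kidneys. It was higher at 15 mg/kg than in cisplatin by 0.55 ± 0.21 (edgeR adjusted p = 0.0431), with 0.26 ± 0.21 (edgeR adjusted p = 0.316) against control, but without the 3 libraries that stand apart the value against cisplatin was 0.17 (edgeR adjusted p = 0.528). Of the 75-base windows in the Rpl13a transcript, 56.3% occur in another annotated gene, so its reads may be shared or lost. Log2 fold changes of the 43 large subunit genes ran from 0.36 to 1.40 at 15 mg/kg and from -0.29 to 1.12 at 30 mg/kg relative to cisplatin. Rpl23, Rpl27, Rpl31, Rpl35a and Rpl38 passed in none of the 4 comparisons with 7-HCG. Rpl38 averaged 91.1 ± 23.7 CPM at 30 mg/kg and 134 ± 94.7 CPM at 15 mg/kg, against 97.0 ± 25.4 CPM in cisplatin and 79.3 ± 15.6 CPM in control kidneys, and its value against cisplatin was 0.46 ± 0.32 (edgeR adjusted p = 0.255) at 15 mg/kg.

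**Figure D3:**
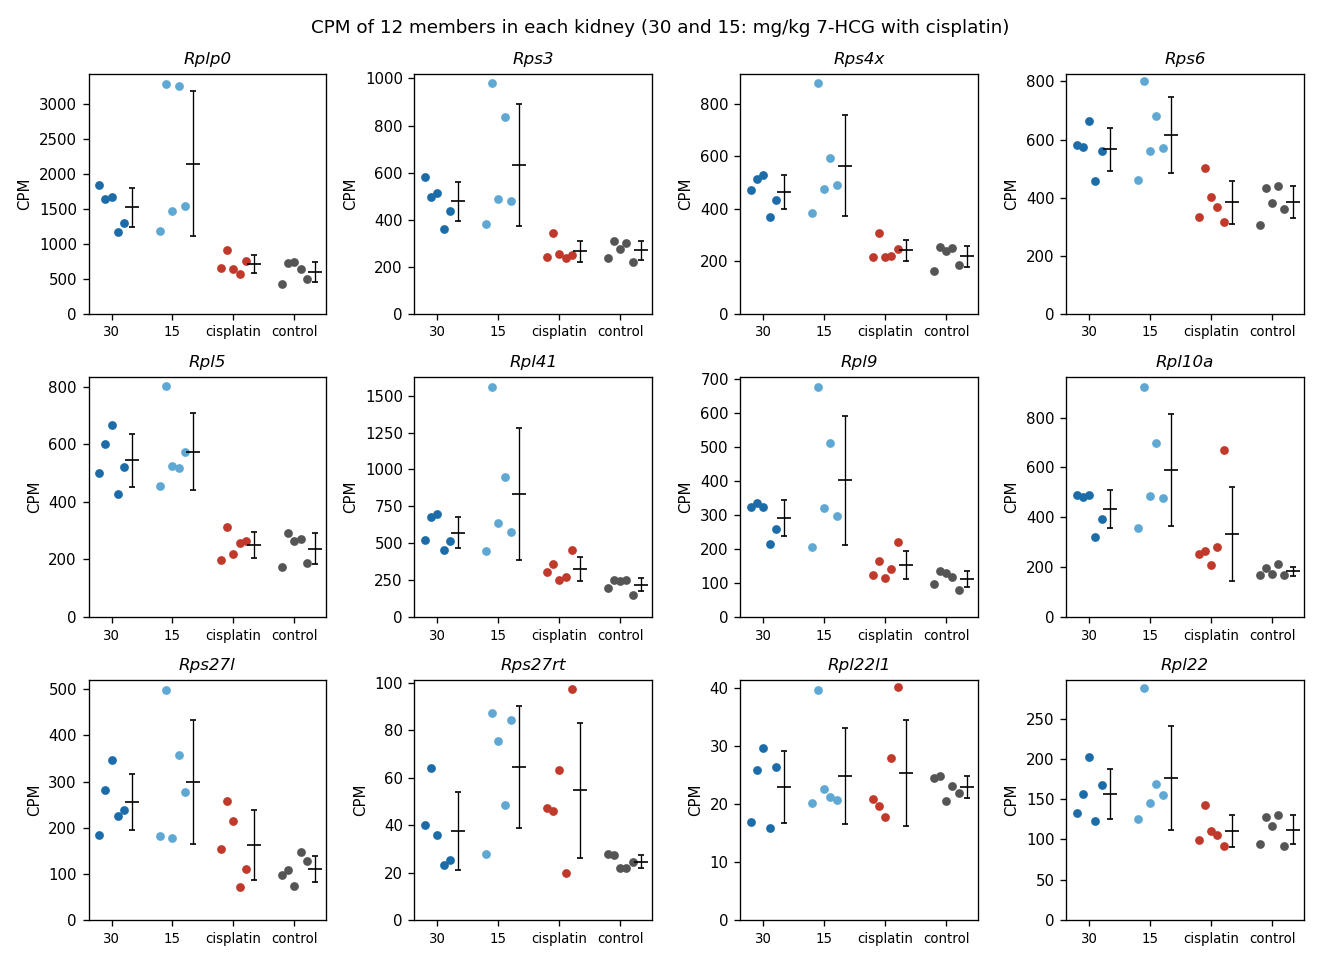
CPM of 12 members in each kidney, with 7-HCG doses in mg/kg on the axis and bars for the mean and SD of 5. For Rplp0, Rps3, Rps4x and Rpl5 all 10 kidneys given 7-HCG lie above the 10 cisplatin and control kidneys, while for Rpl22l1 the 4 groups overlap.

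Of the 8 paralogs, 6 were tested, and 1 was higher at 30 mg/kg and 2 at 15 mg/kg relative to cisplatin, where 14.7% and 18.9% of tested genes were. Without the 3 libraries that stand apart, 1 was higher at each dose, where 8.33% and 12.3% of tested genes were. Rpl7l1, a nucleolar relative of Rpl7, had 99.0, 104, 104, 83.0 and 83.3 CPM in the 30 mg/kg kidneys and 82.0, 104, 87.0, 125 and 94.6 CPM in the 15 mg/kg kidneys, against 56.3, 73.0, 62.2, 44.0 and 45.6 CPM in the cisplatin kidneys and 47.6, 57.6, 54.0, 68.3 and 62.4 CPM in the control kidneys. Both 7-HCG groups were above all cisplatin and control kidneys, and the rise over cisplatin was 0.75 ± 0.17 (edgeR adjusted p = 0.00383) at 30 mg/kg and 0.81 ± 0.17 (edgeR adjusted p = 0.00139) at 15 mg/kg. Rps27l, a p53 target that relates to Rps27, had 185, 281, 346, 226 and 239 CPM in the 30 mg/kg kidneys and 182, 498, 177, 358 and 278 CPM in the 15 mg/kg kidneys, against 155, 257, 215, 70.8 and 111 CPM in the cisplatin kidneys and 98.6, 109, 74.2, 147 and 128 CPM in the control kidneys. Every kidney given 7-HCG was above every control kidney. Against control it was higher by 1.19 ± 0.32 (edgeR adjusted p = 0.00849) at 30 mg/kg and 1.42 ± 0.33 (edgeR adjusted p = 0.00189) at 15 mg/kg, and in cisplatin kidneys the value was 0.54 ± 0.32 (edgeR adjusted p = 0.282). Cisplatin replicates 9 and 10, with 70.8 and 111 CPM, were the lowest of that group. Against cisplatin, Rps27l was higher at 15 mg/kg by 0.88 (edgeR adjusted p = 0.0357), and at 30 mg/kg the value was 0.66 (edgeR adjusted p = 0.128). The call at 15 mg/kg was kept in 22 of 32 alternative fits other than the replicate block.

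Rpl22l1 is a relative of Rpl22, an RNA-binding protein of the large subunit. It had 16.9, 25.8, 29.7, 15.9 and 26.4 CPM in the 30 mg/kg kidneys and 20.1, 39.6, 22.6, 21.2 and 20.6 CPM in the 15 mg/kg kidneys, against 20.9, 19.7, 17.8, 28.0 and 40.1 CPM in the cisplatin kidneys and 24.5, 24.9, 20.5, 23.2 and 21.8 CPM in the control kidneys. The groups overlapped throughout, and its largest difference in size from cisplatin or control was -0.14 ± 0.24 (edgeR adjusted p = 0.701). Rpl22 averaged 157 ± 31.2 CPM at 30 mg/kg and 176 ± 64.4 CPM at 15 mg/kg, against 110.2 ± 19.6 CPM in cisplatin and 112 ± 18.4 CPM in control kidneys (SD, n = 5 each) and was higher at 15 mg/kg than in cisplatin by 0.68 ± 0.21 (edgeR adjusted p = 0.0179), a call that was lost without the 3 libraries that stand apart, at 0.35 (edgeR adjusted p = 0.218). The log2 ratio of Rpl22l1 to Rpl22 counts averaged -2.79 ± 0.17 at 30 mg/kg and -2.82 ± 0.15 at 15 mg/kg, against -2.17 ± 0.65 in cisplatin and -2.28 ± 0.26 in control kidneys. The ratio did not overlap between either dose and control, and a two-sided exact permutation test gave p = 0.00794 for each, the smallest that 5 kidneys against 5 allow. After adjustment over 36 tests of 6 pairs in 6 comparisons it was 0.143, and 0 of the 36 ratios passed.

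Rps27rt, a retrocopy of Rps27 at chr9:114982366-114982739, was the other member called in cisplatin against control. Its start and that of Rps27 are shown because the transcripts share an identical run of 341 bases, so reads cannot be assigned to either with certainty. Capitals mark the run of 24 bases that both printed stretches share; they cover chr3:90213624-90213688, minus strand for Rps27 and chr9:114982715-114982779, minus strand for Rps27rt, from the same RefSeq table.
Rps27: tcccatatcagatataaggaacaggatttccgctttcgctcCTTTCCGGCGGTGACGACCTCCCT
Rps27rt: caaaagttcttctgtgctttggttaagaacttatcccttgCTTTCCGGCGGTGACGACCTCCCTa
Rps27rt had 40.2, 64.2, 35.7, 23.2 and 25.3 CPM in the 30 mg/kg kidneys and 27.8, 87.3, 75.4, 48.6 and 84.5 CPM in the 15 mg/kg kidneys, against 47.5, 46.1, 63.3, 19.9 and 97.4 CPM in the cisplatin kidneys and 27.8, 27.4, 21.8, 21.9 and 24.6 CPM in the control kidneys. Control kidneys were tight, and cisplatin kidneys ranged widely, with replicate 9 below all controls and replicate 10 the highest kidney of the series. Against control, cisplatin was higher by 1.15 ± 0.35 (edgeR adjusted p = 0.0341), and by 0.83 (edgeR adjusted p = 0.142) without replicate 10. Rps27 itself averaged 122 ± 25.9 CPM at 30 mg/kg and 211 ± 147 CPM at 15 mg/kg, against 81.2 ± 25.8 CPM in cisplatin and 84.4 ± 15.7 CPM in control kidneys. Rps27 passed at 15 mg/kg against cisplatin with 1.37 ± 0.34 (edgeR adjusted p = 0.00387), and its value in cisplatin against control was -0.06 ± 0.33 (edgeR adjusted p = 0.935).

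The last paralogs had few counts. Rpl3l, the heart and skeletal muscle form of Rpl3, averaged 4.01 ± 0.231 CPM at 30 mg/kg and 5.44 ± 2.32 CPM at 15 mg/kg, against 3.20 ± 1.04 CPM in cisplatin and 1.85 ± 0.903 CPM in control kidneys. It was higher than in control at both doses, by 1.11 ± 0.34 (edgeR adjusted p = 0.0157) and 1.55 ± 0.34 (edgeR adjusted p = 0.00138) at 30 and 15 mg/kg. Against cisplatin it passed at neither dose, at 0.35 (edgeR adjusted p = 0.462) and 0.78 (edgeR adjusted p = 0.0735). Rpl36al, a retrocopy of Rpl36a, had 472 counts in all 20 libraries and averaged 0.878 ± 0.33 CPM at 30 mg/kg and 0.685 ± 0.264 CPM at 15 mg/kg, against 0.995 ± 0.725 CPM in cisplatin and 0.534 ± 0.377 CPM in control kidneys, and it passed in no comparison. Of the 75-base windows in its transcript, 61.3% occur in another annotated gene, so its reads may be shared or lost. Rps19bp1 averaged 35.3 ± 7.39 CPM at 30 mg/kg and 51.2 ± 24.5 CPM at 15 mg/kg, against 28.8 ± 6.25 CPM in cisplatin and 26.5 ± 4.06 CPM in control kidneys, and was higher at 15 mg/kg than in cisplatin by 0.83 ± 0.24 (edgeR adjusted p = 0.0118), but not without the 3 libraries that stand apart, at 0.34 (edgeR adjusted p = 0.235). Per kilobase of transcript, over all 20 libraries, levels of the tested members ran from 1.47 CPM per kilobase for Rpl36al to 1511 for Rplp1, and Rpl3l, at 2.63, and Rpl13a, at 11.6, were the next lowest.

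Rack1 and Fau encode subunit proteins and fall outside the naming rule. Rack1, a scaffold on the small subunit, was higher than in cisplatin by 0.80 ± 0.22 at 30 mg/kg (edgeR adjusted p = 0.0106) and 1.12 ± 0.22 at 15 mg/kg (edgeR adjusted p = 0.000834). Fau, which carries a small subunit protein behind a ubiquitin-like part, was higher by 1.22 ± 0.29 at 15 mg/kg (edgeR adjusted p = 0.00336), with 0.53 ± 0.29 at 30 mg/kg (edgeR adjusted p = 0.17).

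Genes that act with these proteins were taken from lists chosen by function. Relative to cisplatin, 14.7% of tested genes were higher and 13.2% lower at 30 mg/kg, and 18.9% and 18.6% at 15 mg/kg. A list of 39 genes held translation factors and other genes, some known for pyrimidine starts, and their starts were not checked. Of these 39, 17 were higher and 0 lower at 30 mg/kg than in cisplatin. At 15 mg/kg 20 were higher and 1 lower, and the medians were 0.48 and 0.55 at 30 and 15 mg/kg. Eif3l, of the initiation factor that binds the small subunit, was higher by 0.94 ± 0.18 at 30 mg/kg and 1.11 ± 0.18 at 15 mg/kg (edgeR adjusted p = 0.00129 and 0.000249), and Eef2, the translocation factor, by 0.98 ± 0.20 and 1.08 ± 0.20 (edgeR adjusted p = 0.00183 and 0.000483). Cisplatin against control gave 0 calls among the 39, with 3 at an unadjusted p under 0.05. Of the 39, 13 and 14 were higher without the 3 libraries that stand apart, at 30 and 15 mg/kg, where 8.33% and 12.3% of tested genes were. Of 67 ribosome biogenesis genes, 10 were higher and 4 lower at 30 mg/kg, and 17 higher and 9 lower at 15 mg/kg, with medians of 0.10 and 0.07, so that 20.9% and 38.8% passed in either direction, where 27.9% and 37.5% of tested genes did. When the 3 libraries were left out, 7 were higher and 3 lower at 30 mg/kg, and 11 higher and 4 lower at 15 mg/kg. The helicase gene Ddx18 was higher by 1.23 ± 0.20 and 1.13 ± 0.20 at 30 and 15 mg/kg (edgeR adjusted p = 0.000641 and 0.000402). Rrp1b, another gene of the biogenesis list, was lower, at -2.13 ± 0.46 and -2.26 ± 0.47 (edgeR adjusted p = 0.00318 and 0.0013). In cisplatin against control, Rrp1b was higher by 1.94 ± 0.46 (edgeR adjusted p = 0.0121). Without the 3 libraries Rrp1b was at -0.76 and -0.97 against cisplatin (edgeR adjusted p = 0.0495 and 0.0172) and at 0.54 in cisplatin against control (edgeR adjusted p = 0.207). Of 14 genes of RNA polymerase I and its factors, 1 was higher and 2 lower at 30 mg/kg, and 3 higher and 4 lower at 15 mg/kg, and when the 3 libraries were left out 2 were higher and 1 lower at each dose. Of 27 regulators of ribosomal protein mRNAs and of the response to free ribosomal proteins, 0 were higher and 7 lower at 30 mg/kg, and 3 higher and 10 lower at 15 mg/kg than in cisplatin, against 0 and 4 at 30 mg/kg and 2 and 6 at 15 mg/kg when the 3 libraries were left out. Mdm4, a p53 inhibitor, was lower, at -1.62 ± 0.38 at 30 mg/kg and -1.98 ± 0.38 at 15 mg/kg (edgeR adjusted p = 0.00467 and 0.000837). Mdm2 was higher in cisplatin than in control by 1.73 ± 0.37 (edgeR adjusted p = 0.00669).

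The members' transcripts are short, and other short transcripts moved with them. The 77 core transcripts had a median length of 761 bases, and 59 were under 1000 bases. Among the 1088 tested non-member genes with transcripts under 1000 bases, the median log2 fold change against cisplatin was 0.24 at 30 mg/kg and 0.55 at 15 mg/kg, and 17.2% and 37.5% were called higher. Among the 3536 with 4000 bases or more the medians were -0.21 and -0.40, and 7.44% and 6.99% were called higher. In cisplatin against control, the medians were 0.02 and -0.10. The part of transcript length, and of RNA quality and library preparation that can move with it, in the members' values was not tested.

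**Figure D4:**
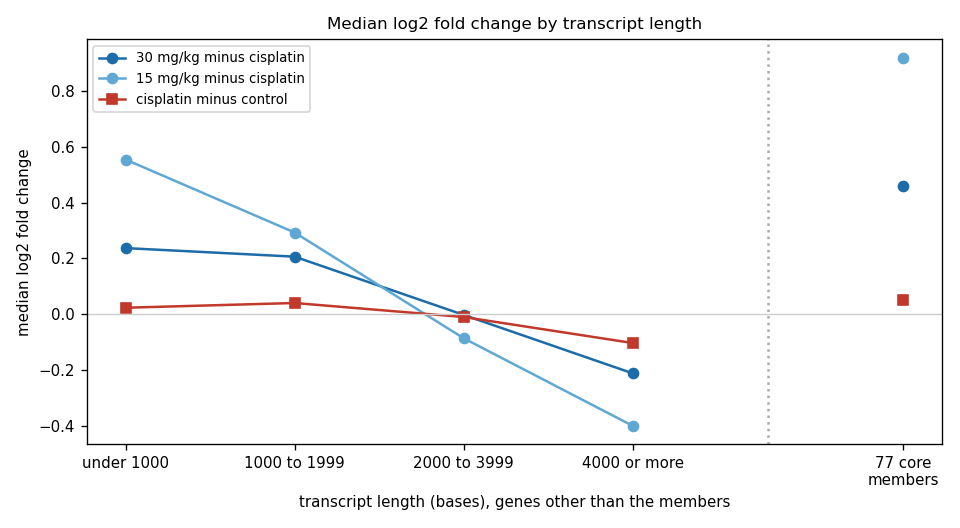
Median log2 fold change of tested genes other than the members, in bins of annotated transcript length, with the median of the 77 core members at the right. At 15 mg/kg against cisplatin the median falls with length, to -0.40 at 4000 bases or more, and the core members are at 0.92.

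Cell type markers also differed between the groups compared. Of 12 proximal tubule markers, 8 were higher at 30 mg/kg and 9 at 15 mg/kg than in cisplatin, with 0 lower, and their summed levels are given above. Of 5 tested neutrophil markers, 4 were lower at each dose than in cisplatin, and their summed level was 1.52 to 4.57 CPM in the 30 mg/kg kidneys and 1.02 to 4.26 CPM in the 15 mg/kg kidneys, against 3.44 to 51.1 CPM in cisplatin kidneys. Of 8 fibroblast and mural markers, 3 were lower at each dose and 1 was higher at 30 mg/kg, and of 8 endothelial markers 1 was lower at each dose. Without the 3 libraries that stand apart, 1 neutrophil marker was lower at each dose, 1 fibroblast or mural marker was lower at 30 mg/kg and 0 at 15 mg/kg, and 0 endothelial markers were lower than in cisplatin. Of 10 macrophage markers, 0 were higher and 2 lower at 30 mg/kg, and 1 was higher and 2 lower at 15 mg/kg. Of 6 erythroid markers 1 was lower at 30 mg/kg, and 0 of 10 injured tubule, 12 lymphocyte and 7 adipose markers passed against cisplatin at either dose. Of 8 markers of the thick limb, distal tubule and collecting duct, 1 was higher at each dose. Of the 13 mitochondrially encoded mRNAs, 13 were lower at each dose than in cisplatin. Without the 3 libraries, 5 proximal tubule markers were higher at 30 mg/kg and 9 at 15 mg/kg, and 0 macrophage or erythroid markers passed. Of the thick limb, distal tubule and collecting duct markers, 1 was then lower at each dose and 1 was higher at 15 mg/kg. Of the mitochondrially encoded mRNAs, 12 were then lower at each dose.

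Relative to control, all 8 fibroblast and mural markers were lower at each dose, and their summed level was 87.4 to 389.6 CPM in the 30 mg/kg kidneys and 114 to 362 CPM in the 15 mg/kg kidneys, against 584 to 1351 CPM in control kidneys. Of 8 endothelial markers 7 were lower at each dose, with sums of 53.4 to 224 CPM in the 30 mg/kg kidneys and 112 to 206 CPM in the 15 mg/kg kidneys, against 323 to 849 CPM in control kidneys. Of 6 erythroid markers 5 were lower at each dose, and of 7 adipose markers 3 were. Of 12 lymphocyte markers, 11 were lower at 30 mg/kg and 10 at 15 mg/kg. Of 10 injured tubule markers 8 were higher at each dose, with sums of 1662 to 17925 CPM in the 30 mg/kg kidneys and 1809 to 10504 CPM in the 15 mg/kg kidneys, against 799 to 1889 CPM in control kidneys. Of 12 proximal tubule markers, 2 were higher at 30 mg/kg and 4 at 15 mg/kg. Of 10 macrophage markers, 1 was higher and 3 lower at 30 mg/kg, and 1 was higher and 2 lower at 15 mg/kg. Of the 13 mitochondrially encoded mRNAs, 12 were lower at 30 mg/kg and 13 at 15 mg/kg. Without the 3 libraries that stand apart, 5 proximal tubule markers were higher than in control at 30 mg/kg and 6 at 15 mg/kg. Injured tubule markers that were higher then numbered 8 and 6, and all 8 endothelial markers were lower at each dose. Of 13 lymphocyte markers tested in that fit, 12 and 8 were lower at 30 and 15 mg/kg. The part of each of these in the members' values was not tested.

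Members varied together across the 20 libraries. The Pearson correlation of each gene's log2 CPM with the mean of the other core members had a median of 0.93 among small subunit genes, 0.89 among large subunit genes and 0.97 among stalk genes, and the lowest core value was 0.63, for Rpl7a. Among the paralogs the median was 0.57, with 0.00 for Rpl36al and 0.25 for Rpl22l1. Over the same 20 libraries, the non-members closest to the core mean were Ctdnep1 (0.97), Acbd6 (0.97) and Fau (0.97), followed by Mrpl23, Ndufb11, Sec61g, Fmc1, Uqcrh, Dpm3 and Mrpl11 at 0.96. All these points share libraries, depth and group differences, and 15 mg/kg replicate 2 is among them. The proteins of the mitochondrial ribosome are encoded by other nuclear genes, and of 77 tested, 37 were higher at 30 mg/kg and 62 at 15 mg/kg than in cisplatin, with 1 lower at each dose and medians of 0.56 and 0.77. Over all tested genes, 14.7% and 18.9% were higher at 30 and 15 mg/kg. Without the 3 libraries that stand apart, 22 and 35 of the 77 were higher, where 8.33% and 12.3% of tested genes were.

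**Figure D5:**
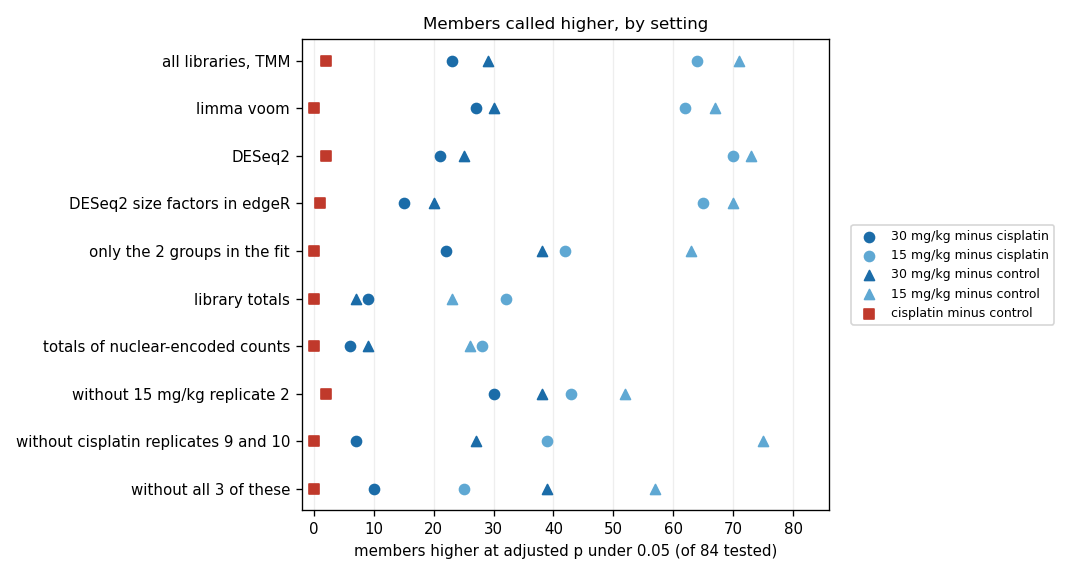
Number of the 84 tested members called higher, in 5 comparisons (symbols) under 10 settings (rows), from the fit with all libraries and TMM scaling at the top to the fit without the 3 libraries that stand apart at the bottom. At 15 mg/kg against cisplatin the number runs from 70 with DESeq2 to 25 without the 3 libraries.

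A few members kept their calls under most settings. In the 32 alternatives other than the replicate block, Rplp0, Rpl5 and Rps4x kept their call in all 4 comparisons of a dose with cisplatin or control. Rpl3, Rpl9 and Rpl41 each kept it in 3 of them. With the replicate block, whose numbers did not pair the animals, Rplp0 and Rps4x did not pass at 30 mg/kg against cisplatin (edgeR adjusted p = 0.104 and 0.0636). These members were picked out after their values were seen. Without the 3 libraries that stand apart, Rplp0 was higher than in cisplatin by 1.04 at 30 mg/kg and 1.35 at 15 mg/kg (edgeR adjusted p = 0.0302 and 0.00791), and Rpl5 by 1.15 and 1.10 (edgeR adjusted p = 0.00445 and 0.00444). For Rpl9 the same values were 1.10 and 1.32, and for Rpl41 0.91 and 1.13.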

How the data were processed

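Whole kidneys of 20 mice in 4 groups of 5 were analysed, grouped and numbered by the sample titles. The authors deposited whole-number read counts per gene and library; per the submitters' processing notes FastQC, Trimmomatic, HISAT2, StringTie and DESeq2 were used with the mouse build mm10 (GRCm38). How reads were counted, with which strand setting and which annotation, is not given in the sources used here. Overlapping or antisense genes therefore cannot be separated, and near-identical copies may take each other's reads. Libraries held 10714532 to 49602115 counts, and 3 counts correspond to 0.0496 to 0.375 CPM (counting error only, as reads had no molecular identifiers). Coordinates are those of the table, and promoter sequences are RefSeq entries of GRCm38.p6.

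The counts as deposited were filtered by group, scaled by TMM and tested by the quasi-likelihood test of edgeR 4.0.16 (R 4.3.3), all 20 libraries in 1 fit with 16 residual degrees of freedom and Benjamini-Hochberg adjustment over the 14858 tested genes. The threshold was 0.05. Values after ± are the SD of 5 animals for CPM and the standard error for log2 fold changes. Ratios of paralog counts, with 0.5 added, were compared by two-sided exact permutation tests. Transcript lengths, and runs of 75 bases shared between genes, come from a GENCODE annotation of GRCm38. In simulated counts for 15 mg/kg against cisplatin over 14726 genes, the test recovered 35% of 2-fold and 84% of 4-fold changes, with 6 false calls. Only 100 genes were changed at each fold, and counts were drawn independently for each gene. They held no length trend and no libraries that stand apart, so false calls in data with these features were not tested.

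Members, lists and tests were chosen with earlier results of these data known. The genes named were a fixed panel of 12 and every paralog with its partner, the 5 largest changes in each direction among called members of each comparison, the list genes with the smallest p and the 10 genes closest to the core mean; members outside this rule are named after their values were seen. Replicate numbers were checked for pairing and did not pair the animals. No 2 libraries of a group were alike (chi-square per degree of freedom 27.1 to 1816 over 40 pairs). Alternatives were other scalings, DESeq2 1.42.0, limma 3.58.1 (voom), no filter, fits with only 2 groups, a replicate block and fits without each library or those that stand apart.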

Additional observations from a re-analysis of the deposited data

Results flagged for a closer look

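Dixon's test with a critical value of 0.71 was applied to 32 measures (named members and library-wide levels) over 128 groups of 5 kidneys. It flagged 7 values far from the rest of their group, all in 15 mg/kg replicate 2 and cisplatin replicates 3 and 10. Chance flags about 1 in 20 groups. In 15 mg/kg replicate 2, Rplp2 was at 954 CPM (235 to 443 CPM in the other 4 kidneys), Rpl22 at 288 CPM (125 to 169 CPM), Rpl22l1 at 39.6 CPM (20.1 to 22.6 CPM) and Rpl36a at 443 CPM (100.3 to 162 CPM). In cisplatin replicate 10, Rpl10a was at 668 CPM (208 to 279.8 CPM in the others) and Rpl36al at 2.25 CPM (0.426 to 0.884 CPM). In cisplatin replicate 3, Rps3 was at 344 CPM (238 to 254 CPM).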

How the results depend on the processing

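Counts are given for 30 mg/kg against cisplatin, 15 mg/kg against cisplatin, 30 mg/kg against control, 15 mg/kg against control and cisplatin against control, in that order, and were 23, 64, 29, 71 and 2 with all libraries. They were 9, 32, 7, 23 and 0 with library totals, 6, 28, 10 (9 higher and 1 lower), 26 and 0 with totals of nuclear-encoded counts (chosen after seeing the data), 22, 42, 38, 63 and 0 with only the 2 groups in the fit, and 15, 65, 20, 70 and 1 with DESeq2 size factors in edgeR. DESeq2 gave 21, 70, 25, 73 and 2, limma voom 27, 62, 30, 67 and 0, leaving out mitochondrial mRNAs before scaling 18, 66, 21, 70 and 1, and no filter 24, 65, 28, 71 and 1. Without cisplatin replicates 9 and 10 they were 7, 39, 27, 75 and 0, without these and 15 mg/kg replicate 2 (chosen after seeing the data) 10, 25, 39, 57 and 0, and without control replicates 2 and 5 22, 62, 16, 56 and 0. Leaving out 1 library at a time gave 11 to 32, 43 to 77, 18 to 38, 52 to 78 and 0 to 2. The lowest of these came without cisplatin replicate 2, without 15 mg/kg replicate 2 (for both 15 mg/kg counts) and without control replicate 1. Members kept in every one of the 20 such fits numbered 11, 43, 18, 52 and 0.

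Median log2 fold changes that moved were, with totals of nuclear-encoded counts, 0.10, 0.36, 0.054 and 0.35 (medians of all genes -0.34, -0.52, -0.44 and -0.64), with library totals 0.71 at 30 mg/kg against cisplatin (all genes 0.39) and -0.22 in cisplatin against control (all genes -0.35), and without the 3 libraries 0.43 at 15 mg/kg against cisplatin. Without 1 library the medians ran from 0.36 to 0.60, 0.58 to 1.01, 0.44 to 0.61, 0.66 to 1.12 and -0.07 to 0.12, and from -0.64 to -0.20 for 30 against 15 mg/kg, where 0 members passed in each such fit. With totals of nuclear-encoded counts Rpl7 turned to -0.090 at 15 mg/kg against control. The cause was not tested. With the replicate block the counts were 2, 12, 19, 53 and 0. Replicate numbers did not pair the animals: of 15 same-number pairs, 4 had a correlation of deviations over 0.1, and 2 of 18 libraries matched their own number best. The paralog ratios gave 0 calls of 36 in each setting and in each fit without 1 library. Even the smallest p that the permutation test of 5 kidneys against 5 allows, 0.00794, was 0.143 after adjustment. The absence of calls therefore decides little. Among 74 named member results, 85 of 1480 values without 1 library and 165 of 962 under other settings lost the threshold.

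Limits: 5 animals a group, unpaired, 3 libraries that stand apart, no 7-HCG group without cisplatin, no stated strand, and copies that share reads. Depth was 164265 to 1838917 member counts per library and limits rare paralogs: Rpl36al had 472 counts in all.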

Other observations

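Core members that share much and little sequence with other genes had like values. Of the 38 core members with at most 50% of their 75-base windows in other annotated genes, 9 were higher at 30 mg/kg and 29 at 15 mg/kg than in cisplatin, with median log2 fold changes of 0.38 and 0.93. Of the 39 with more than 50% of windows shared, 13 and 32 were higher, with medians of 0.47 and 0.92.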
